A study of Homo sapiens with 6 samples.

Results

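The genes described here are 10 components of Toll-like receptor (TLR) signalling, namely the receptors TLR1, TLR2, TLR6, TLR7, TLR9 and TLR10, the adaptor MYD88, the kinases IRAK1 and IRAK4, and the transport protein UNC93B1. They were taken by symbol, as a list of pathway genes, and all 10 were found among the 20667 gene symbols of each library. The samples were 6 RNA-seq libraries of U2932, a human cell line of the ABC (activated B-cell-like) type of diffuse large B-cell lymphoma. In 3 of them the cells stably expressed an shRNA against ROCK2 (ROCK2 KD), and in the other 3 a scrambled shRNA (Scr shRNA), both delivered by lentivirus from a pLKO.1 vector with puromycin resistance and tGFP. The groups thus shared the lentiviral infection and the vector. The construct list of the study gives a single sequence for the ROCK2 shRNA, so that an effect of that sequence on other transcripts cannot be told apart from the loss of ROCK2. The libraries carry the numbers 1 to 3 in each group, the labels do not say whether these were separate cultures, and p values below measure only the spread between these libraries, which may be technical.

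TLRs are receptors of innate immunity that recognise microbial molecules. TLR1, TLR2, TLR6 and TLR10 form a family at the cell surface, where TLR2 pairs with TLR1 or TLR6 to bind bacterial lipopeptides, while TLR7 and TLR9 recognise RNA and unmethylated CpG DNA in endosomes and are carried there by UNC93B1. These receptors recruit MYD88, which assembles IRAK4 and IRAK1, and the signal passes through TRAF6, TAK1 and the IKK complex to NF-κB. B-cells express several TLRs, and signalling through MYD88 to NF-κB is one of the pathways that are commonly active in this lymphoma type.

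TLR10, TLR1 and TLR6 lie in a cluster on the minus strand of chromosome 4 (GRCh37), the annotated span of TLR6 within that of TLR1, with TLR10 from 38773859 to 38784611, TLR1 from 38792298 to 38858438 and TLR6 from 38824518 to 38858438. TLR2 lies elsewhere on chromosome 4, from 154605222 to 154627412. TLR1 and TLR6 share a part of their annotated 5′ exons, and their coding sequences hold stretches that are identical over more than the length of a read, which was 50 bases. Of the exonic windows of 50 bases, 246 were common to TLR1 and TLR6, which is 5.93% of those of TLR1 and 3.67% of those of TLR6, and 0 were common to TLR10 and either of them. The longest identical coding run measured 218 bases. It is shown within 300 coding bases of each gene, because reads from it cannot be assigned to TLR1 or TLR6 by sequence alone. The TLR1 stretch is chr4:38798816-38799115 and the TLR6 stretch chr4:38829443-38829742 (GRCh37, minus strand, read 5′ to 3′), and capitals mark the 2 bases at which they differ (99.3% identity).
TLR1: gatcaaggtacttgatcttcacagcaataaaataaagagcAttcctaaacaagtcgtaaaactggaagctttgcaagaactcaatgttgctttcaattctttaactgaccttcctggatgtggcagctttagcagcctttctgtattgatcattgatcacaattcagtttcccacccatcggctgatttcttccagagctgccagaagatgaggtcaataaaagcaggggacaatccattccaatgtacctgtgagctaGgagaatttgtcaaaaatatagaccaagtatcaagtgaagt
TLR6: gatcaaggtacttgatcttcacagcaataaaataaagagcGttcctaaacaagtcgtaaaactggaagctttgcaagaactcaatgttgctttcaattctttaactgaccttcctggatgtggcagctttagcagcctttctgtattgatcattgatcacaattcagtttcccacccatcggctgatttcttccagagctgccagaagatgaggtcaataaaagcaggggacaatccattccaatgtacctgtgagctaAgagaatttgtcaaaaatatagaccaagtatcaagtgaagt

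The other genes are spread over the genome. TLR9 lies on chromosome 3 from 52255096 to 52259661 and MYD88 on the same chromosome from 38180043 to 38184515. TLR7 and IRAK1 are on chromosome X, from 12885191 to 12908480 and from 153275957 to 153285353. IRAK4 is on chromosome 12 from 44152747 to 44192110, and UNC93B1 on chromosome 11 from 67758571 to 67772452. All 10 are annotated as protein coding. UNC93B1 had the largest share of exonic windows with an exact copy elsewhere in the genome, 17.5%, among which were the related loci UNC93B3 and UNC93B7, so that its separate level is uncertain. In the current annotation 99.7% of the exonic bases of TLR9 also belong to exons of an overlapping gene on the same strand that has no symbol, and MYD88 had 0 windows with a copy and no exonic overlap.

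Promoters were available from RefSeq (GRCh38.p14, 250 bases before to 50 after the start) for TLR2, TLR6, TLR9, MYD88, IRAK1 and IRAK4, and not for TLR1, TLR7, TLR10 and UNC93B1. Since the study concerns IRF4 and MYC, both strands were searched for a piece of the IRF site (GAAANNGAA), a piece of the ETS-IRF composite site (GGAANNGAA), a piece of the NF-κB site (GGNNTTTCC) and the E-box CACGTG. These are held by 8.11%, 7.78%, 6.26% and 7.25% of the 35097 promoters of that length. The pieces of the IRF and the composite site cannot match at the same position but can overlap, and no matches overlapped here. The MYD88 promoter held 1 IRF piece and the TLR2 promoter 1 NF-κB piece and 1 E-box, while those of TLR6, TLR9, IRAK1 and IRAK4 held none of the 4. A match is a description of the letters and not of binding. The promoters of TLR2, which was nearly silent, of TLR6, which was higher in ROCK2 KD in every pair, and of MYD88, whose pairs were nearly equal, are shown with the matches in capitals, from chr4:153684030-153684329 (plus strand), chr4:38856768-38857067 (minus strand) and chr3:38138411-38138710 (plus strand).
TLR2 promoter: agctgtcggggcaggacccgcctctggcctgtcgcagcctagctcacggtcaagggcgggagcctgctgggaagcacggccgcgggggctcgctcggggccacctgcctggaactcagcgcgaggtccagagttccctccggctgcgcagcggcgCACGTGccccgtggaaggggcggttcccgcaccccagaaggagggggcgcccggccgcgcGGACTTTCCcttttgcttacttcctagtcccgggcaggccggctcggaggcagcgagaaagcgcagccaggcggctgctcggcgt
TLR6 promoter: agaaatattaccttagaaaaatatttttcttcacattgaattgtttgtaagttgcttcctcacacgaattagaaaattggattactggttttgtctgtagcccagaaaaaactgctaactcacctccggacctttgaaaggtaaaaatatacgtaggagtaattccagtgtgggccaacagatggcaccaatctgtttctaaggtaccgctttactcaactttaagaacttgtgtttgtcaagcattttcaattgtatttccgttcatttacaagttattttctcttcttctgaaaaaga
MYD88 promoter: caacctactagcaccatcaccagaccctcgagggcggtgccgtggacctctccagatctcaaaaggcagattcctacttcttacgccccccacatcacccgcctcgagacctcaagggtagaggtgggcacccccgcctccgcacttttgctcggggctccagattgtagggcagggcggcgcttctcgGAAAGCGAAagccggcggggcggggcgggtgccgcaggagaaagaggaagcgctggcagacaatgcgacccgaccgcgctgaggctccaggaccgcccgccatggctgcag

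The values were FPKM, which are corrected for transcript length and library size and can be compared between genes, but do not state how many reads lie behind a value. The FPKM of a library summed to 208289 and 217309 in the replicate 1 libraries and to between 438262 and 480612 in the others, so each library was scaled before testing, and tests were run with limma on log2(scaled FPKM + 1) with the replicate number as a block. Differences below are on that scale, ROCK2 KD minus Scr shRNA, and the added 1 makes them too small for genes of low FPKM. The B-cell markers MS4A1, CD79A and CD79B were at mean FPKM of 230 to 371 in both groups. All 7 myeloid markers and all 7 T and NK cell markers were under 1 FPKM in every library, FCGR1A, S100A8, S100A9, MPO and CD2 being listed at 0 in each. The T and NK cell markers summed to 0.409 to 1.04 FPKM in ROCK2 KD and 0.244 to 0.624 in Scr shRNA libraries. The highest of them, CD3E, was 3.43, 2.53 and 3.30 times as high in ROCK2 KD in pairs 1, 2 and 3, while CD8A and NCAM1 were each higher in 1 pair and lower in 2. The part of these markers in the results was not tested. ROCK2 itself had FPKM of 2.75, 5.35 and 1.26 in ROCK2 KD and 4.32, 7.21 and 5.78 in Scr shRNA replicates 1, 2 and 3, lower in every pair, with a log2 difference of -0.81 (standard error 0.22, adjusted p = 0.797). The ROCK2 difference was -0.54, -0.34 and -1.53 in pairs 1, 2 and 3, and without replicate 3 it was -0.43.

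U2932 cells expressed the endosomal receptor TLR9 and the surface receptor TLR10 at the highest levels among the TLRs, together with MYD88 and both IRAK kinases. In Scr shRNA libraries the mean FPKM was 26.6 ± 11.4 (SD, n = 3) for IRAK1, 14.4 ± 6.17 (SD, n = 3) for MYD88, 12.9 ± 9.37 (SD, n = 3) for TLR9 and 10.0 ± 6.08 (SD, n = 3) for TLR10. IRAK4 followed at 7.77 ± 0.829 (SD, n = 3), UNC93B1 at 4.25 ± 1.26 (SD, n = 3), TLR1 at 3.44 ± 1.44 (SD, n = 3), TLR6 at 3.22 ± 1.28 (SD, n = 3), TLR7 at 1.66 ± 0.930 (SD, n = 3) and TLR2 at 0.464 ± 0.170 (SD, n = 3). Of the 9 neighbouring pairs in this order, only IRAK4 and UNC93B1 had ranges that did not overlap. Within each Scr shRNA library IRAK1 lay above MYD88, and in all 3 TLR6 lay above TLR7. In ROCK2 KD the order was the same except that TLR10, at 14.6 ± 8.46 (SD, n = 3), stood above TLR9, at 11.1 ± 6.92 (SD, n = 3), and TLR1 above UNC93B1. Among the receptors outside the list, TLR3, TLR5 and TLR8 were under 0.2 FPKM in every library.

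**Figure D1:**
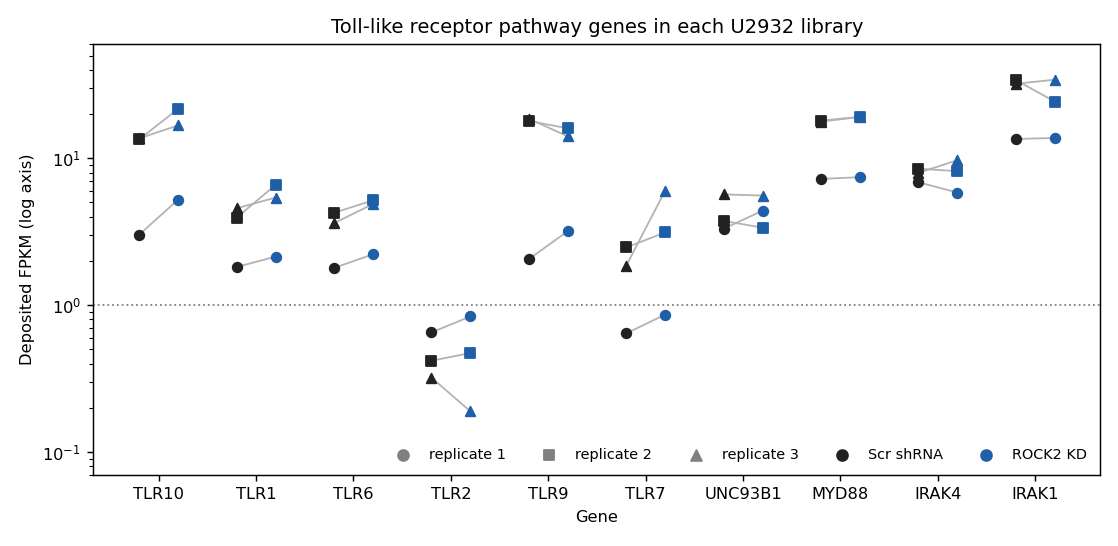
Deposited FPKM of the 10 genes (log axis) in each library, with Scr shRNA in black, ROCK2 KD in blue, symbols for the replicate number and grey lines joining same-numbered libraries. The dotted line is an FPKM of 1. TLR10, TLR1, TLR6 and TLR7 slope upward from Scr shRNA to ROCK2 KD in all 3 pairs, TLR2 stays below 1 in every library, and the replicate 1 libraries (circles) lie below the other libraries for all genes but TLR2 and UNC93B1.

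The comparison of ROCK2 KD with Scr shRNA asks which genes of the pathway change when ROCK2 is silenced. In each of the 3 same-numbered pairs the ROCK2 KD library had more TLR10, TLR7, TLR1 and TLR6, with mean log2 differences of 0.26 to 0.56, whereas TLR9, MYD88, IRAK1, IRAK4 and UNC93B1 had mean differences between -0.13 and 0.06. None passed the adjusted threshold. Of the 10 genes 9 passed the filter on low values, which asked for 3 or more libraries at an FPKM of 1 or above, and TLR2 did not. Of these 9, the ROCK2 KD library was the higher in every pair for 5, the above 4 receptors and MYD88, and 0 were lower in all 3, where 12.8% and 12.4% of the 10526 genes tested were higher or lower in all 3. At an unadjusted p under 0.05 there were 3 of the 9 from limma with the replicate block, TLR10, TLR7 and TLR6, all of them higher, beside 5.42% of all genes tested (3.10% higher and 2.32% lower). Which genes these were depended on the libraries: without replicate 1 they were TLR1, TLR7 and TLR10, without replicate 2 TLR7 and TLR10, without replicate 3 TLR10 alone, and without the replicate block none. TLR6, at an unadjusted p of 0.0486 from limma, was above 0.05 whichever replicate was left out (0.0942, 0.139 and 0.153 without replicates 1, 2 and 3), with a pseudocount of 0.1 (0.0503) and without the filter (0.0625). At an adjusted p under 0.05 there were 0, as for all genes tested (0%). The median log2 difference was 0.06 over the 9 genes, 0.31 over the 5 receptors tested and -0.01 over all genes tested. When ComBat was applied to the replicate number and limma fitted without the block, which is the order of steps in the study's methods, 2 of the 9, TLR6 and TLR10, had adjusted p values under 0.05 (0.0390 and 0.0458), beside 2.80% of all genes. That fit does not account for the replicate means that ComBat removes.

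TLR10 is a member of the TLR1 and TLR6 family that is expressed mainly in B-cells. Its FPKM was 5.23, 21.7 and 16.7 in ROCK2 KD and 3.02, 13.4 and 13.7 in Scr shRNA replicates 1, 2 and 3. The ROCK2 KD library was the higher in each pair, by 1.73, 1.62 and 1.22 times in the deposited values, although the groups overlapped because of the low level of both replicate 1 libraries. The log2 difference was 0.52 (standard error 0.13, 95% interval 0.22 to 0.83), with an unadjusted p of 0.00476 and an adjusted p of 0.759 from limma. Leaving out 1 replicate number at a time moved it between 0.45 and 0.67.

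TLR6, the partner of TLR2 for diacylated lipopeptides, had FPKM of 2.22, 5.17 and 4.88 in ROCK2 KD and 1.79, 4.25 and 3.61 in Scr shRNA libraries. The 3 pairs gave nearly the same log2 difference, 0.23, 0.24 and 0.30, and the mean was 0.26 (standard error 0.11, 95% interval 0.00 to 0.51, adjusted p = 0.900). TLR1, the partner of TLR2 for triacylated lipopeptides, had FPKM of 2.14, 6.58 and 5.40 in ROCK2 KD and 1.82, 3.94 and 4.57 in Scr shRNA libraries. It too was higher in each pair, and most so in pair 2, with log2 differences of 0.18, 0.61 and 0.16. The mean of 0.31 (standard error 0.13, adjusted p = 0.900) was 0.16 without replicate 2. As the shown stretches of TLR1 and TLR6 are nearly identical, the division of reads between these genes is uncertain, and the summed FPKM of TLR1, TLR6 and TLR10 was therefore also computed. It was 9.59, 33.5 and 27.0 in ROCK2 KD and 6.63, 21.6 and 21.8 in Scr shRNA libraries, a log2 difference of 0.45 ± 0.19 (SD of 3 pairs), with 0.49, 0.62 and 0.25 in pairs 1, 2 and 3. TLR2, the shared partner of TLR1 and TLR6, was under 1 in all 6 libraries, at 0.837, 0.472 and 0.189 in ROCK2 KD and 0.652, 0.419 and 0.321 in Scr shRNA. It was higher in ROCK2 KD in pairs 1 and 2 and lower in pair 3.

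The RNA receptor TLR7 had FPKM of 0.862, 3.13 and 6.004 in ROCK2 KD and 0.642, 2.47 and 1.85 in Scr shRNA replicates 1, 2 and 3. Its difference was carried by pair 3, at a log2 of 1.20 against 0.22 and 0.25 in pairs 1 and 2. Pair 3 was also the pair in which ROCK2 was lowest relative to its control, and the part of this in the TLR7 value was not tested. The mean was 0.56 (standard error 0.20, 95% interval 0.08 to 1.04, adjusted p = 0.884), and without replicate 3 it was 0.23. The CpG DNA receptor TLR9 had FPKM of 3.19, 16.0 and 14.1 in ROCK2 KD and 2.06, 17.9 and 18.6 in Scr shRNA libraries. TLR9 was higher in ROCK2 KD in pair 1 and lower in pairs 2 and 3, with log2 differences of 0.50, -0.13 and -0.42, so that the pairs spread (SD 0.47) far more widely than their mean of -0.02 (95% interval -0.44 to 0.40, adjusted p = 0.997). The sign of that mean changed with the setting, being -0.28 without replicate 1 and 0.18 without replicate 3. The 8 B-cell identity markers had median log2 differences of 0.38, 0.09 and -0.29 in pairs 1, 2 and 3, and their part in the TLR9 values was not tested.

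UNC93B1, which brings TLR7 and TLR9 to the endosome, had FPKM of 4.39, 3.37 and 5.57 in ROCK2 KD and 3.31, 3.75 and 5.68 in Scr shRNA libraries. It was higher in ROCK2 KD in pair 1 and slightly lower in the other pairs, with a mean log2 difference of 0.06 (95% interval -0.25 to 0.37, adjusted p = 0.995) that was -0.09 without replicate 1.

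MYD88, the adaptor that most TLRs share, had FPKM of 7.44, 19.1 and 19.1 in ROCK2 KD and 7.23, 18.1 and 17.8 in Scr shRNA libraries. The libraries of each pair were nearly equal, with log2 differences of 0.04, 0.09 and 0.05, the smallest spread between pairs among the 10 genes (SD 0.029). The mean of 0.06 had a 95% interval of -0.18 to 0.30 (adjusted p = 0.990). IRAK4, the kinase that MYD88 recruits, had FPKM of 5.85, 8.17 and 9.70 in ROCK2 KD and 6.87, 8.50 and 7.95 in Scr shRNA libraries. It was lower in pairs 1 and 2 and higher in pair 3 (log2 differences -0.21, -0.03 and 0.21), and its mean of -0.01 (95% interval -0.30 to 0.28, adjusted p = 0.997) turned to 0.00 without scaling and to 0.09 without replicate 1. IRAK1, which IRAK4 activates, had FPKM of 13.7, 24.3 and 34.3 in ROCK2 KD and 13.5, 34.1 and 32.1 in Scr shRNA libraries. Only pair 2 differed by more than 0.05 on the log2 scale, at -0.45, and the mean of -0.13 (95% interval -0.43 to 0.18, adjusted p = 0.981) was 0.03 without replicate 2. Whether the receptors differ from the adaptor and kinases in their response was not tested.

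**Figure D2:**
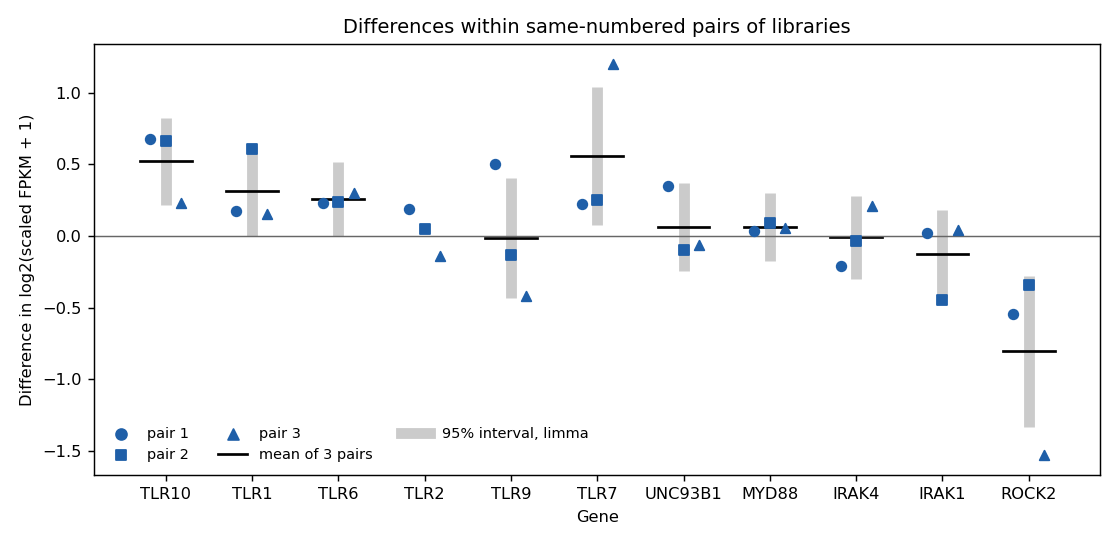
Difference in log2(scaled FPKM + 1), ROCK2 KD minus Scr shRNA, for each of the 10 genes and for ROCK2, with 1 symbol per same-numbered pair, a black bar at the mean of the 3 pairs and a grey bar for the 95% interval from limma. TLR2 was not tested and has points only. All 3 points lie above 0 for TLR10, TLR1, TLR6, TLR7 and MYD88, and on both sides of 0 for TLR9, UNC93B1, IRAK4 and IRAK1.

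The make-up of the TLR mRNA can be read within a library, without any scaling between libraries. The FPKM of the 10 TLR genes in the files, TLR1 to TLR10, summed to 15.8, 55.9 and 49.1 in ROCK2 KD and 11.4, 45.0 and 44.7 in Scr shRNA replicates 1, 2 and 3. TLR10 made up 33.1%, 38.9% and 34.1% of this sum in ROCK2 KD and 26.5%, 29.8% and 30.6% in Scr shRNA libraries. The TLR10 share was thus higher in ROCK2 KD in each pair, while the FPKM of TLR10 overlapped between the groups. The shares of a library are parts of a single sum, so that a lower TLR9 share raises that of TLR10. TLR9 made up 20.2%, 28.7% and 28.7% in ROCK2 KD and 18.01%, 39.8% and 41.6% in Scr shRNA libraries, lower in pairs 2 and 3 and slightly higher in pair 1. The ratio of TLR10 to TLR9 was 1.64, 1.36 and 1.19 in ROCK2 KD against 1.47, 0.750 and 0.735 in Scr shRNA, so that TLR10 exceeded TLR9 in all ROCK2 KD libraries but only in replicate 1 among the controls. TLR7 made up 12.2% in ROCK2 KD replicate 3 and between 4.15% and 5.62% in the other 5 libraries. The ratio of TLR1 to TLR6 lay between 0.926 and 1.27 in all 6 libraries. These shares and ratios were chosen after the values were seen and are given as a description.

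**Figure D3:**
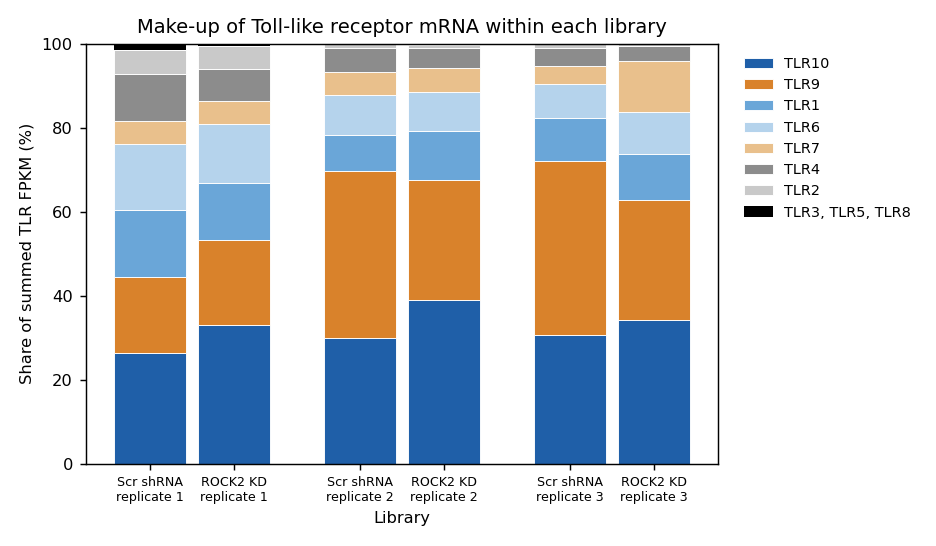
Share of the summed FPKM of TLR1 to TLR10 (percent, stacked to 100) held by each gene in each library, same-numbered libraries side by side. The TLR10 share runs from 33.1% to 38.9% in ROCK2 KD and from 26.5% to 30.6% in Scr shRNA, and the TLR9 share is smallest in the replicate 1 libraries.

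TLR9 and TLR10 also differed between replicate numbers, by more than between the groups. On the log2(scaled FPKM + 1) scale, the mean of replicates 2 and 3 exceeded replicate 1 by 1.99 in Scr shRNA and 1.21 in ROCK2 KD for TLR9, which was more than for 99.7% and 98.6% of the genes tested. For TLR10 it was 1.15 and 0.92 (above 96.2% and 96.0% of genes), and for TLR7 0.51 and 1.01 (80.4% and 97.0%). B-cell identity markers moved with them: 7 of the 8 were higher in replicates 2 and 3 than in replicate 1 in Scr shRNA and 6 of the 8 in ROCK2 KD, with median shifts of 1.07 and 0.25, MS4A1 for example by 1.71 and 1.09 and CD79B by 1.98 and 0.90. Their part in the shifts of the receptors was not tested. IRAK4 and UNC93B1 were lower in replicates 2 and 3 after scaling, at -0.52 and -0.22 for IRAK4 and -0.29 and -0.72 for UNC93B1, and the median over genes tested was -0.02 in both groups. MYD88 was higher in replicates 2 and 3 by 0.43 and 0.47. The replicate block removes the part of these shifts that both groups share, and the part that differs between the groups stays in the pair differences. Without the block 0 of the 9 genes had an unadjusted p under 0.05 from limma.

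The rest of the pathway was described with 8 lists chosen with earlier results of these data known. Their counts and medians are therefore a description. Together the lists hold 78 genes, of which 65 were tested. Of these, 41 were higher and 24 lower in ROCK2 KD, and of all 10526 genes tested 5081 were higher and 5445 lower. In all 3 pairs 18 of the 65 were higher and 4 lower, beside 12.8% and 12.4% of all genes tested. From limma, 13 higher and 2 lower genes had an unadjusted p under 0.05, beside 3.10% and 2.32% of all genes tested, and 0 had an adjusted p under 0.05. Their median log2 difference was 0.06. Among other receptors and accessory proteins only 3 of 9 were tested, LY96 at a log2 difference of 0.41, TLR4 at -0.04 and LY86 at -0.08, with none at an unadjusted p under 0.05.

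Of the 8 tested genes for trafficking and processing of endosomal TLRs, 7 lay above 0, with a median log2 difference of 0.22. Beside 3.10% of all genes tested, 3 of the 8 were higher at an unadjusted p under 0.05 from limma. These were CXorf21, the adaptor that links the transporter SLC15A4 to IRF5, at 0.43 (standard error 0.12, adjusted p = 0.813), the lysosomal protease CTSS at 0.37 and the TLR chaperone CNPY3 at 0.29. Each was higher in all 3 pairs, as were 12.8% of all genes tested. AP3B1, a subunit of the AP-3 sorting complex, was at 0.16.

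The other adaptors and IRAKs went both ways. PIK3AP1, a B-cell adaptor that couples TLRs to PI3K, was higher in all 3 pairs at 0.30, and TICAM1, the adaptor of the MYD88-independent branch, was lower in all 3 at -0.31 (adjusted p = 0.871 for both). TIRAP, which bridges surface TLRs to MYD88, was at 0.10 and IRAK3, an inhibitory IRAK, at -0.10. Among the 13 tested genes around TRAF6 and TAK1, 6 were higher and 7 lower with a median of -0.03, and only the ubiquitin ligase PELI1, at 0.27, had an unadjusted p under 0.05. SHARPIN was at -0.20, UBE2V1 at -0.13 and PELI2 at 0.12.

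In the IKK and NF-κB list, 3 of 8 were higher and the median was -0.02. REL, the NF-κB subunit typical of B-cells, was higher in all 3 pairs at 0.33 (adjusted p = 0.898), the IKK scaffold IKBKG was at -0.29 (adjusted p = 0.900), with both libraries of pair 3 nearly equal, and NFKB1 and RELA were at 0.19 and -0.09. All 6 IRFs and kinases were higher on average, where 5081 of all 10526 genes tested were higher. The median of the 6 was 0.11, and 0 of them had an unadjusted p under 0.05 from limma. IRF5, which TLR7 and TLR9 activate, was at 0.36, IRF4 at 0.18, IRF8 at 0.13 and BTK at 0.09.

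Among the 9 tested negative regulators 6 were higher. The inhibitor NFKBIE was higher in all 3 pairs at 0.51 (standard error 0.15, adjusted p = 0.813) and NFKBIB lower in all 3 at -0.27 (adjusted p = 0.900), while NFKBIA and TNFAIP3 were at 0.32 and 0.26. Of the 13 tested NF-κB target genes 9 were higher and 4 lower, and 4 were higher in all 3 pairs. The median log2 difference was 0.49, and 6 had an unadjusted p under 0.05 from limma, all higher. That median is the value of IL10. IL10 and CCL22 reached an FPKM of 1 only in ROCK2 KD replicates 2 and 3 and in Scr shRNA replicate 2. Both are among the 6 and passed the filter through the ROCK2 KD libraries, so the counts and the median are only a description. The 4 with the lowest p were BCL2A1, a survival protein, at 0.68 (standard error 0.15), IL10 at 0.49, the activation marker CD83 at 0.61 and the chemokine CCL4 at 1.42, each with an adjusted p of 0.759. CCL4 differed by 0.15 in pair 1 against 1.67 and 2.45 in pairs 2 and 3. CCL3 and CCL22, the others of the 6, were at -0.06 and -0.03 in pair 1 and higher in ROCK2 KD in pairs 2 and 3. IL10 was low, from 0.07 FPKM in Scr shRNA replicate 1 to 2.52 in ROCK2 KD replicate 2. At an unadjusted p under 0.05 from limma, 3.10% of all genes tested were higher and 2.32% lower, and 12.8% were higher in all 3 pairs.

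**Figure D4:**
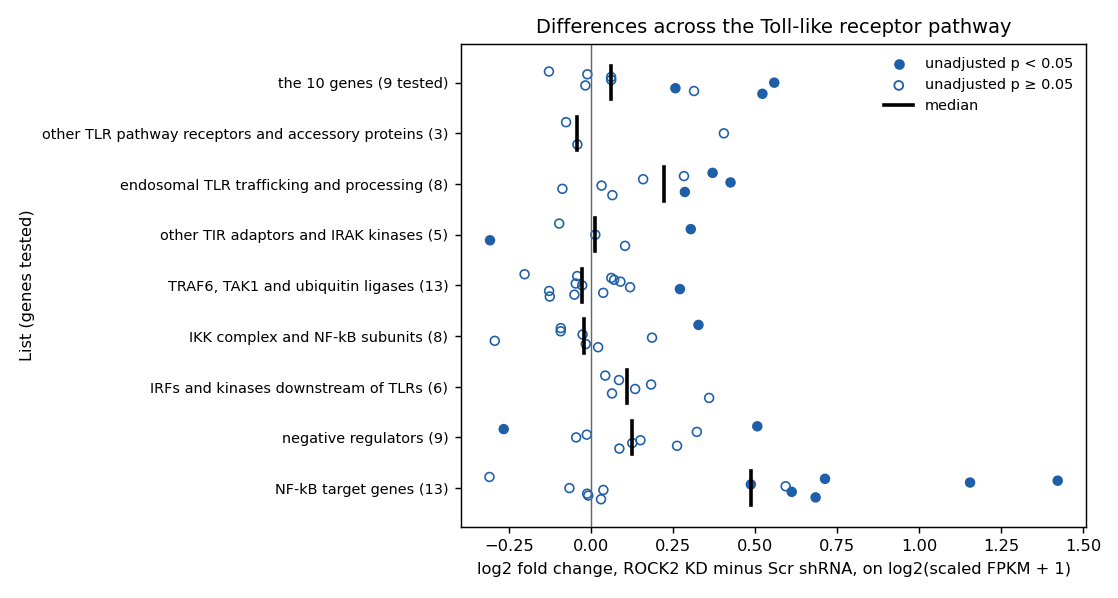
Log2 difference, ROCK2 KD minus Scr shRNA on the log2(scaled FPKM + 1) scale, of each tested gene in the 10-gene set and in 8 lists of pathway genes, filled where the unadjusted p from limma was under 0.05, with a black bar at the median of each list. The NF-κB target genes have a median of 0.49, which is the value of IL10, a gene that passed the filter through the ROCK2 KD libraries. The TRAF6 and IKK lists lie around 0.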

How the data were processed

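Total RNA of 6 libraries was profiled by RNA-seq. The authors prepared Nextera libraries, mapped paired reads of 50 bases to hg19 with STAR 2.4.2 and computed FPKM with Cufflinks 2.2.1. The deposited FPKM, 1 value for each of 20667 symbols per library, were used as given, and the number of reads behind a value is unknown.

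Each library was divided by a trimmed mean of log ratios to the geometric mean library (trimming 0.3 of ratios and 0.05 of levels at each end). The 10526 genes that reached an FPKM of 1 in 3 or more libraries were fitted on log2(scaled FPKM + 1) in limma 3.58.1 (R 4.3.3) with the condition, the replicate number as a block and a mean-variance trend, two-sided, with Benjamini-Hochberg adjustment over all genes tested at 0.05. The block stands in for the ComBat step that the study applied to raw counts before limma. Deviations from the group means correlated between libraries of the same number (r = 0.847, 0.785 and 0.736 across genes, which are not independent, against -0.64 to 0.05 for other numbers). Deviations within a group cancel out, so a positive value for the same number lowers those for other numbers, which are no independent comparison. Alternatives were the fit without the block, ComBat (written out in its parametric form, without the condition), a pseudocount of 0.1, other filters and scalings, no trend, and leaving out each replicate number.

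Positions and exons came from GENCODE 44 lifted to GRCh37, and exact copies of exonic windows of 50 bases were sought on both strands of that genome. The authors' gene models may differ. Tables and plots were made in Python 3.11.15 with pandas 2.3.3, numpy 2.4.6 and matplotlib 3.10.9. The members and lists were chosen with earlier results of these data known. A further pathway list is not reported here. All 10 genes are named, and from each pathway list the 4 tested genes with the lowest p, from each cell marker list the 3 with the highest mean FPKM. CCL3 and CCL22 are named besides. Of the epithelial and packaging cell markers, EPCAM was at 3.83 and 3.58 FPKM in ROCK2 KD and Scr shRNA, KRT8 and KRT18 were under 1, CDH1 was listed at 0 and KRT19 was not analysed here. CSF1R, LYZ, ITGAM, CD3E, CD8A and NCAM1 were the highest of the myeloid and T and NK markers, all under 1.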

Additional observations from a re-analysis of the deposited data

How the results depend on the processing

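The replicate numbers were taken to pair the libraries, and the fit without the replicate block left 0 of the 9 genes tested with an unadjusted p under 0.05, where the blocked fit had 3. At an adjusted p under 0.05 it made no call over all genes either, and the number of genes at an unadjusted p under 0.05 was 31 against 570 with the block. ComBat followed by limma without the block gave 295 genes with an adjusted p under 0.05 and 2119 at the unadjusted level. Leaving out each replicate number in turn gave between 0 (without replicate 2) and 34 such genes over all genes, with 4 without replicate 3 and 34 (1007 unadjusted) without replicate 1, and between 1 and 3 of the 9 genes with an unadjusted p under 0.05. Without a filter on low values that number was 1. The cause of these changes was not tested.

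Of 98 recomputed values of the 9 genes, 88 kept their direction and their side of the adjusted threshold, 8 changed sign and 2, TLR6 (0.20) and TLR10 (0.40) after ComBat, passed it. The sign changed for TLR9 with a pseudocount of 0.1 (0.010), without replicate 2 (0.038) and without replicate 3 (0.18; -0.28 without replicate 1), for IRAK1 without replicate 2 (0.033, otherwise down to -0.21), for IRAK4 without scaling (0.00198), without replicate 1 (0.086) and without replicate 2 (0.000305, and -0.12 without replicate 3), and for UNC93B1 without replicate 1 (-0.088, otherwise up to 0.14). ROCK2 stayed negative, from -1.06 with a pseudocount of 0.1 to -0.43 without replicate 3. TLR10 ranged from 0.40 to 0.67 and TLR6 from 0.20 to 0.32. TLR7 could not be fitted with FPKM of at least 1 in every library, where it does not pass. Without a filter TLR2 was at 0.03 (adjusted p = 0.954 from limma). FPKM give no depth, so the counting error of the low genes TLR2 and TLR7 is not known.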
